A study of Mus musculus with 44 samples.

Results

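The 42 genes described here encode the machinery of the unfolded protein response and of the integrated stress response, and were followed by day of treatment in mouse small intestinal organoids. They were taken as a named list of genes wherever the raw count tables held them. The table of organoids given RANKL held all 42 among its 21099 genes, and the table of organoids given RANKL with CSRM617 held 38 among its 9257, so Manf, Derl3, Ppp1r15a and Slc7a11 were not analysed with CSRM617. The chaperone branch comprised 21 genes, 15 for folding in the endoplasmic reticulum (ER) and 6 for ER-associated degradation (ERAD). It was kept apart from 5 genes called sensors here and from the ATF4 branch of 16 genes. The sensor group held Atf6, Ern1, Ern2 and Eif2ak3, and also Xbp1, which encodes a transcription factor and not a sensor. In the ATF4 branch 7 were regulators and 9 acted in amino acid and one-carbon metabolism, transport or glutathione turnover, or were other known ATF4 targets.

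Unfolded protein in the ER is sensed by ATF6, by the IRE1 proteins (encoded by Ern1 and Ern2) and by PERK (Eif2ak3). ATF6 and the spliced form of XBP1, which IRE1 produces, switch on chaperones and ERAD genes, whereas PERK and related kinases phosphorylate eIF2α, which lowers general translation and favours that of ATF4. ATF4 in turn drives genes for amino acid synthesis and uptake, tRNA charging and, in prolonged stress, CHOP (Ddit3) and TRIB3. In the intestine these pathways are known above all from goblet and Paneth cells, which secrete large amounts of protein, and Ern2 is an IRE1 form of mucus-secreting epithelium. The counts used here do not separate the spliced from the unspliced Xbp1 transcript, and measure neither translation nor phosphorylation.

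Single cells had been sorted into 384-well plates and sequenced by a modified CEL-Seq2 protocol with unique molecular identifiers (UMIs), which count RNA molecules at their 3′ ends. In the RANKL+CSRM617 arm the organoids received 100 ng/mL RANKL, the cytokine that induces M cells, with 40 µM CSRM617, an inhibitor of the transcription factor ONECUT2, and were sampled on days 0 to 6 with 2 plates per day (14 plates). In the RANKL arm they received 100 ng/mL RANKL alone and were sampled on days 0 to 9 with 3 plates per day (30 plates). All organoids, day 0 included, came from 1 line, line26, called wild type and carrying Lgr5GFPDTR/+, from a female mouse. They had first been given 3 µM CHIR99021 and 1.5 mM valproic acid for 3 days and then 1 day of ENR medium without them. Lgr5GFPDTR places a reporter and a toxin receptor at the stem cell gene Lgr5 and the labels give no age. Nothing in the labels makes the plates of a day separate cultures, so p-values here reflect plate-to-plate spread, which may be technical, and the line stands for 1 mouse. The effect of RANKL and of time after the pre-treatment cannot be told apart, since every later plate had received RANKL. The arms were separate sets of plates, so arm and set of plates cannot be told apart. Within an arm every comparison with day 0 shared the same day 0 plates.

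Wells with 1000 or more UMIs were kept. In the RANKL+CSRM617 arm these were 1673 of 1903, with 24 to 223 cells and 47976 to 835772 UMIs per plate, and plate medians of 1800 to 3685 UMIs per cell. In the RANKL arm they were 6558 of 6636, with 26 to 282 cells and 155940 to 1640523 UMIs per plate, and plate medians of 2968 to 6960 UMIs per cell. Fewer than 50 cells were held by 2 RANKL+CSRM617 plates and 3 RANKL plates, among them RANKL day 0 replicate 2 with 26. No well had counts identical to those of another. Per 1000000 UMIs of a plate, epithelial markers summed to 2393 to 4915, whereas fibroblast, immune and endothelial markers reached at most 9.25. The makeup of the cultures changed with the day. Enterocyte-marked cells (10 or more UMIs over 7 enterocyte genes, from at least 2 of them) made up 43.3% of cells on RANKL day 0, 15.8% on day 1, 37.9% on day 3, 2.57% on day 6 and 5.73% on day 9, while summed stem cell markers stood at 3226, 7547, 3819, 10546 and 9875 per 1000000 UMIs. On the same days M cell markers summed to 143, 2274, 2801, 1017 and 369 and goblet markers to 266, 844, 532, 767 and 1147. Plate medians of UMIs per cell were 4688 to 6470.5 on RANKL day 0, 3442.5 to 3999 on day 6 and 2968 to 4213.5 on day 9. The part of M cell markers and of depth in the results was not tested. In counts summed over a plate, fewer cells of a type and less RNA per cell cannot be told apart.

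Promoter sequences are shown for some members, picked because they moved with their branch and carry the element through which that branch is known to be switched on. Promoters came from RefSeq (build GRCm38.p6), 250 bases before to 50 after the start, and 37 of the 42 genes matched, 21 of the chaperone branch and sensors and all 16 of the ATF4 branch. The ER stress element, bound by ATF6 with NF-Y, was searched as CCAAT followed after 9 free bases by CCACG. ER stress element II was searched as ATTGG followed after 1 free base by CCACG, and the core of the ATF4 and C/EBP composite element as TGATG followed after 1 free base by AA, each on both strands. The first stood in 9 of these 21 chaperone and sensor promoters, in 0 of the 16 ATF4 branch promoters and in 0.119% of all 32851 promoters of the table. The 9 were Calr, Canx, Creld2, Derl3, Dnajc3, Hsp90b1, Hspa5, Pdia6 and Syvn1. The second stood in Dnajb11 and Herpud1 and in 0.0365% of all promoters. The ATF4 core stood in 5 of 16 ATF4 branch promoters (Asns, Chac1, Slc7a11, Trib3 and Vldlr), in 1 of the 21 others (Herpud1) and in 3.97% of all. Not every carrier moved like those printed. With RANKL, Calr rose on day 1, Hsp90b1 had the smallest fall of the folding genes on day 6, and Derl3 was too scarce to test. Vldlr was near its day 0 level on day 9. A link between element and change was not tested. No match overlapped another in the promoters printed here, a match is a description of letters and not of binding, and the absence of one says only that these letters are not in the window. The 250 bases before the start follow, 5′ to 3′ on the gene's strand, with the matches in capitals; the Creld2 and Chac1 matches and the second of Slc7a11 are on the opposite strand. Hspa5 (chr2:34771840-34772089, plus strand), Pdia6 (chr12:17266339-17266588, plus strand) and Creld2 (chr15:88819396-88819645, plus strand) carry the ER stress element, and Chac1 (chr2:119350992-119351241, plus strand), Asns (chr6:7693210-7693459, minus strand) and Slc7a11 (chr3:50443614-50443863, minus strand) carry the ATF4 core.
Hspa5: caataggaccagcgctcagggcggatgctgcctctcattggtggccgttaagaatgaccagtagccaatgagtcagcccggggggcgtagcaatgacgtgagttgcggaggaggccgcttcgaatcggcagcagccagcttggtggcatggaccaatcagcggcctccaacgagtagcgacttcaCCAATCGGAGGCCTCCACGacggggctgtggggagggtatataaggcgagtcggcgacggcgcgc
Pdia6: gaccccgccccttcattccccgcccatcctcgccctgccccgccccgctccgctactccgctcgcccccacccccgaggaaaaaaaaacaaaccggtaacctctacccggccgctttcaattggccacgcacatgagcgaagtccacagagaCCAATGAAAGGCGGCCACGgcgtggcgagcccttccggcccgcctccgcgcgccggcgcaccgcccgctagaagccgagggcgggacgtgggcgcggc
Creld2: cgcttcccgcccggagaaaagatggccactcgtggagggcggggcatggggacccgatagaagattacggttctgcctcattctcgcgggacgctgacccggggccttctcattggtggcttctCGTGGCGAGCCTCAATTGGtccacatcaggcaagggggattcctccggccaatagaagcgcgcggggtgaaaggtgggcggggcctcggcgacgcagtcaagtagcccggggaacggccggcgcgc
Chac1: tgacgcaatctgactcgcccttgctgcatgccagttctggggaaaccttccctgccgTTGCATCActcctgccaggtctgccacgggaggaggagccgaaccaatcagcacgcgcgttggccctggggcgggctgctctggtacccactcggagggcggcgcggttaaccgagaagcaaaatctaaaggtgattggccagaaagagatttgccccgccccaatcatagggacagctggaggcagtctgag
Asns: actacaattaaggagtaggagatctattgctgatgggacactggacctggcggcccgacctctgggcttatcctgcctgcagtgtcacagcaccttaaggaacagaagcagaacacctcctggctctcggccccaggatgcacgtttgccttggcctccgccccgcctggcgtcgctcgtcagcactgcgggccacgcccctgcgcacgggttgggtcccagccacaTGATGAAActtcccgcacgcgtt
Slc7a11: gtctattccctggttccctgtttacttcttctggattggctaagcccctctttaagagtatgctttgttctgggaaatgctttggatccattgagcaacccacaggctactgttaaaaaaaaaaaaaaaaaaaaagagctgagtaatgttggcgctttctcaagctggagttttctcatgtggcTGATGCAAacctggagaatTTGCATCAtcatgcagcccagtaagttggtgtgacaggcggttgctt

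With RANKL the ER folding genes fell together, but late. Of the 15, 2 were called higher and 2 lower on day 1, near the 11.4% and 12.3% of all genes tested. None was called higher on days 3, 6 or 9, the later days compared with day 0. Called lower were 9 on day 3, all 15 on day 6 and 14 on day 9, against 10.2%, 19.4% and 18.4% of all genes. Of the 9 ATF4 amino acid genes, 6 were already lower on day 1 and all 9 on day 3, against 12.3% and 10.2% of all genes. Unlike these, Ddit4, a stress-induced inhibitor of mTORC1, was the only member called higher than day 0 on each of the 4 days compared.

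UMIs were summed per plate and tested with edgeR's quasi-likelihood test over all genes, with Benjamini-Hochberg adjustment and a threshold of 0.05 (a called gene). The filter on low counts was passed by 10000 genes, 40 members among them. Derl3 and Ppp1r15a did not, with 19 UMIs of Derl3 in all 30 plates. On day 1, 3 members were higher and 14 lower than on day 0, against 11.4% and 12.3% of all genes tested (23.8% in either direction). On day 3, 1 was higher and 23 lower, against 10.2% and 10.2% of all genes (20.4%). On day 6, 1 was higher and 33 lower, against 18.9% and 19.4% (38.3%). On day 9, 1 was higher and 31 lower, against 18% and 18.4% (36.4%). Over the members tested the median log2 fold change was -0.36 on day 1, -0.69 on day 3, -0.95 on day 6 (the same with Chac1, at 0 UMIs that day, set to its bound) and -0.98 on day 9. The all-gene medians were 0.00, -0.01, 0.04 and 0.03. A test of any difference among the 10 days called 35 of the 40, against 58.6% of all genes. The day 1 count was the least stable: it was 10 without RANKL day 0 replicate 1 and 11 without RANKL day 0 replicate 3. With each cell weighted equally, the share of all calls that was higher moved to 66.6%, 68.7%, 66.9% and 66.1% on days 1, 3, 6 and 9, from 48.2%, 50.1%, 49.5% and 49.4% in the plate sums. The all-gene medians moved to 0.15, 0.12, 0.25 and 0.22. Under that weighting 5, 17, 24 and 27 members were lower, against 7.13%, 6.08%, 12.6% and 12.7% of all genes, and 2, 1, 2 and 3 higher, against 14.2%, 13.4%, 25.4% and 24.8%.

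**Figure D1:**
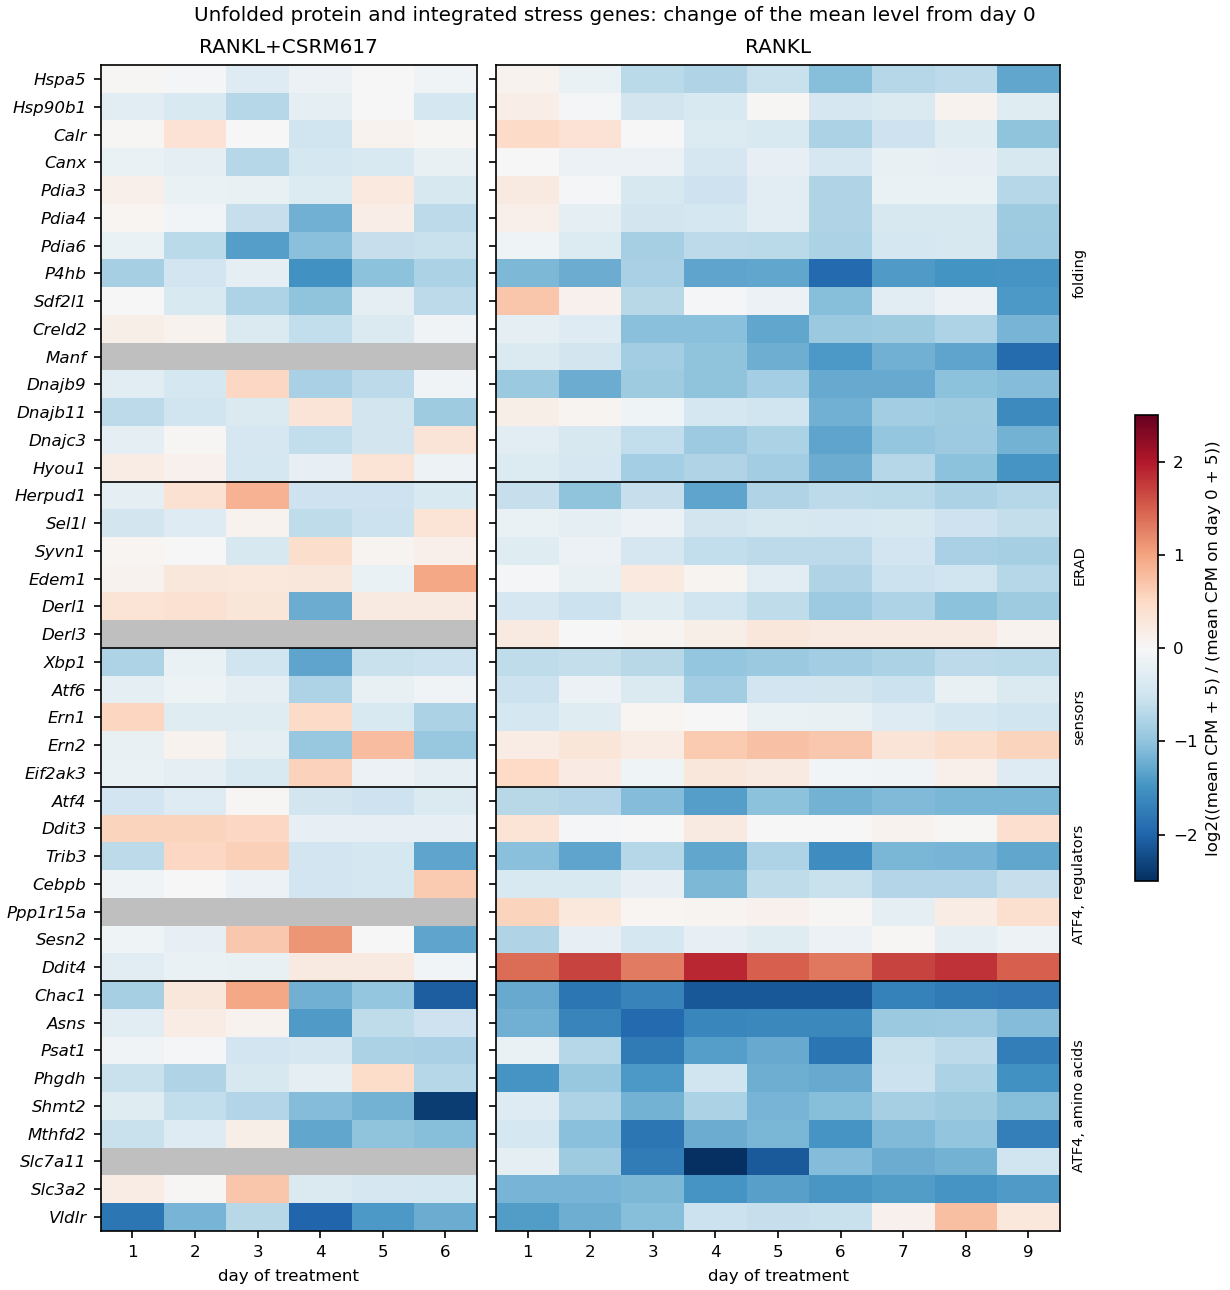
Change of each member's mean level from day 0, as log2 of the ratio of mean CPM with 5 CPM added to both, by day (x axis) and gene (y axis), RANKL+CSRM617 on the left and RANKL on the right; gray rows were not analysed with CSRM617. Most folding rows of the RANKL panel turn blue from day 3, the ATF4 amino acid rows from day 1 to 3, and Ddit4 stays red.

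Hspa5 encodes BiP, the ER Hsp70 chaperone that also holds the sensors inactive (Ensembl ENSMUSG00000026864, GRCm38 chr2:34771970-34777547, plus strand). Levels are counts per 1000000 UMIs after TMM scaling (CPM). In the RANKL plates Hspa5 had 968, 616 and 1140.3 on day 0, 974, 1007 and 918 on day 1, 626, 475 and 598 on day 3, 414, 420.2 and 457 on day 6 and 364, 361 and 378 CPM on day 9. Every plate of days 6 and 9 lay below every plate of day 0, whereas those of days 1 and 3 overlapped its range. On day 1 the log2 fold change against day 0 was 0.05 ± 0.14 (SE; adjusted p = 0.843). It was -0.72 ± 0.14 on day 3 (adjusted p = 0.000174), -1.12 ± 0.14 on day 6 (adjusted p = 7.03e-08) and -1.34 ± 0.14 on day 9 (adjusted p = 3.75e-09). Manf, an ER stress-induced protein retained in and secreted from the ER (ENSMUSG00000032575, chr9:106838312-106891979, minus strand), had 386, 327 and 351 CPM on day 0, 294, 281 and 255 on day 1, 229, 159 and 188 on day 3, 126, 158 and 99.2 on day 6 and 82.9, 83.2 and 105 on day 9. Its plates of day 1 onward lay below all those of day 0, and its log2 fold changes were -0.90 ± 0.17 on day 3, -1.50 ± 0.18 on day 6 and -1.98 ± 0.19 on day 9 (adjusted p = 2.3e-10).

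The partners of BiP were lower on days 6 and 9 as well. Hyou1, the nucleotide exchange factor of BiP, was -1.43 ± 0.31 on day 6 and -1.68 ± 0.33 on day 9 (log2 against day 0), while its call of -0.93 on day 3 was lost without RANKL day 0 replicate 3 (-0.54) or RANKL day 3 replicate 2 (-0.51). The Hsp40 partners Dnajb11 and Dnajc3 were -1.23 ± 0.22 and -1.31 ± 0.17 on day 6. Dnajb11 had 100.3, 115 and 77.1 CPM on day 0, 107, 109 and 108 on day 1, 80.1, 113 and 79.7 on day 3 and 41.5, 43.5 and 33.1 on day 6, so that the plates of days 1 and 3 lay within the range of day 0 and those of day 6 below it. Dnajb9, a further Hsp40 partner and an XBP1 target, was an early exception, at -1.13 ± 0.21 on day 1 (adjusted p = 7.86e-05) and -1.29 ± 0.22 on day 9. Creld2, an ER stress-induced disulfide isomerase-like protein whose ER stress element is printed above, was -1.13 ± 0.31 on day 3 and -1.30 ± 0.34 on day 9.

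Of the protein disulfide isomerases, P4hb, which is also a subunit of prolyl hydroxylase and of the triglyceride transfer protein of enterocytes, fell first. P4hb had 1195, 1046 and 941 CPM on day 0, 527, 452 and 484 on day 1, 533, 759.5 and 514 on day 3, 306, 264 and 245 on day 6 and 419, 435 and 289 on day 9. All later plates named here were below all day 0 plates, and the log2 fold change was -1.12 ± 0.16 on day 1 and -1.97 ± 0.16 on day 6 (adjusted p = 8.06e-12). Pdia6 was -0.10 ± 0.13 on day 1, which was not called, and -0.83 ± 0.13 on day 3 and -0.90 ± 0.14 on day 9, which were. Pdia3 (-0.77 on day 6) and Pdia4 (-0.71) were called lower on days 6 and 9 but depended on single plates. On day 6 the call of Pdia3 was lost without RANKL day 0 replicate 3 (-0.68) or RANKL day 6 replicate 1 (-0.56), and that of Pdia4 without RANKL day 0 replicate 3 (-0.52) or RANKL day 6 replicate 1 (-0.63) or 2 (-0.49). On day 9 the Pdia3 value of -0.71 lost its call without RANKL day 0 replicate 1 (-0.70) or 3 (-0.62) or RANKL day 9 replicate 1 (-0.57) or 2 (-0.62) or 3 (-0.63), and that of Pdia4 (-0.86) without RANKL day 0 replicate 3 (-0.68).

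Calr and Sdf2l1 were the folding genes that were higher on day 1. Calr, a lectin chaperone and ER calcium store, had 1171, 1090.0 and 1166 CPM on day 1, against 882, 674 and 909 on day 0, so that all day 1 plates were higher (0.45 ± 0.11, adjusted p = 0.0032). On day 2, which was not compared, its plates were still above those of day 0, at 1015, 1149 and 1012 CPM. By day 6 Calr had fallen below day 0, with 474, 437 and 504 CPM (-0.82 ± 0.12), and on day 9 it had 376, 428 and 410.4 (-1.04 ± 0.12). Sdf2l1, which works with Dnajb11, had 42.4, 55 and 66.7 CPM on day 1, against 31.3, 38.5 and 25.7 on day 0 (0.88 ± 0.30), a call lost without RANKL day 0 replicate 1 (1.01) or 3 (0.74) or RANKL day 1 replicate 3 (0.77). On day 9 it had 13.3, 9.36 and 3.01 CPM, all below day 0 (-1.86 ± 0.41). Canx, the membrane-bound lectin chaperone, was -0.44 ± 0.12 on day 6. Hsp90b1, the ER form of Hsp90, had the smallest fall of the 15 on day 6. Its value was -0.45 on day 3, with the call lost without RANKL day 0 replicate 1 (-0.34) or 2 (-0.44) or 3 (-0.50) or RANKL day 3 replicate 1 (-0.46) or 2 (-0.24). It was -0.41 on day 6, with the call lost without RANKL day 0 replicate 1 (-0.28) or 2 (-0.41) or 3 (-0.46) or RANKL day 6 replicate 1 (-0.26) or 2 (-0.26). It was not called on day 9 (-0.30 ± 0.17).

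Of the 5 ERAD genes tested, 2 were lower on day 1, 2 on day 3 and all 5 on days 6 and 9. Their median was -0.75 on day 6 and -0.80 on day 9, beside -1.12 and -1.29 for the folding genes. Derl1, a channel component of retrotranslocation, was -1.08 ± 0.18 on day 6 and -1.02 ± 0.18 on day 9. Syvn1, the ubiquitin ligase also called HRD1, was -0.96 ± 0.20 on day 9, and its adaptor Sel1l -0.66 ± 0.16. Herpud1, which recruits that ligase complex, was called lower on all 4 days, between -0.80 and -0.67, but 1 plate decided these values: without RANKL day 0 replicate 1 they were -0.35 on day 1, -0.34 on day 3, -0.40 on day 6 and -0.44 on day 9, and were not called. Edem1, which delivers misfolded glycoproteins to the complex, was 0.36 ± 0.17 on day 3, not called, and -0.69 ± 0.19 on day 6, a call lost without RANKL day 0 replicate 3 (-0.56).

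In the sensor group only Xbp1, which encodes no sensor itself, was called on all 4 days. It had 259, 199 and 302 CPM on day 0, 163, 165 and 155 on day 1, 155, 163 and 143 on day 3, 176, 106 and 125 on day 6 and 147, 153 and 173 on day 9, all later plates lying below all day 0 plates. Its log2 fold changes were -0.72 ± 0.16, -0.78 ± 0.16, -0.96 ± 0.16 and -0.74 ± 0.16 on those later days. Atf6 was called lower on day 1 (-0.74) and day 6 (-0.65), but lost the call on day 1 without RANKL day 0 replicate 1 (-0.56) or 3 (-0.71) or RANKL day 1 replicate 1 (-0.60) or 2 (-0.65). On day 6 it lost it without RANKL day 0 replicate 1 (-0.43) or 3 (-0.62) or RANKL day 6 replicate 1 (-0.47) or 2 (-0.48). Ern1 and Eif2ak3 were called on none of the days compared, with log2 values of -0.54, 0.08, -0.21 and -0.60 for Ern1 and 0.33, -0.38, -0.31 and -0.58 for Eif2ak3. Ern2 was scarce, with 5.92, 9.36 and 8.03 CPM on day 9, against 7.36, 0 and 3.81 on day 0, and was not called either (0.61 ± 0.58).

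**Figure D2:**
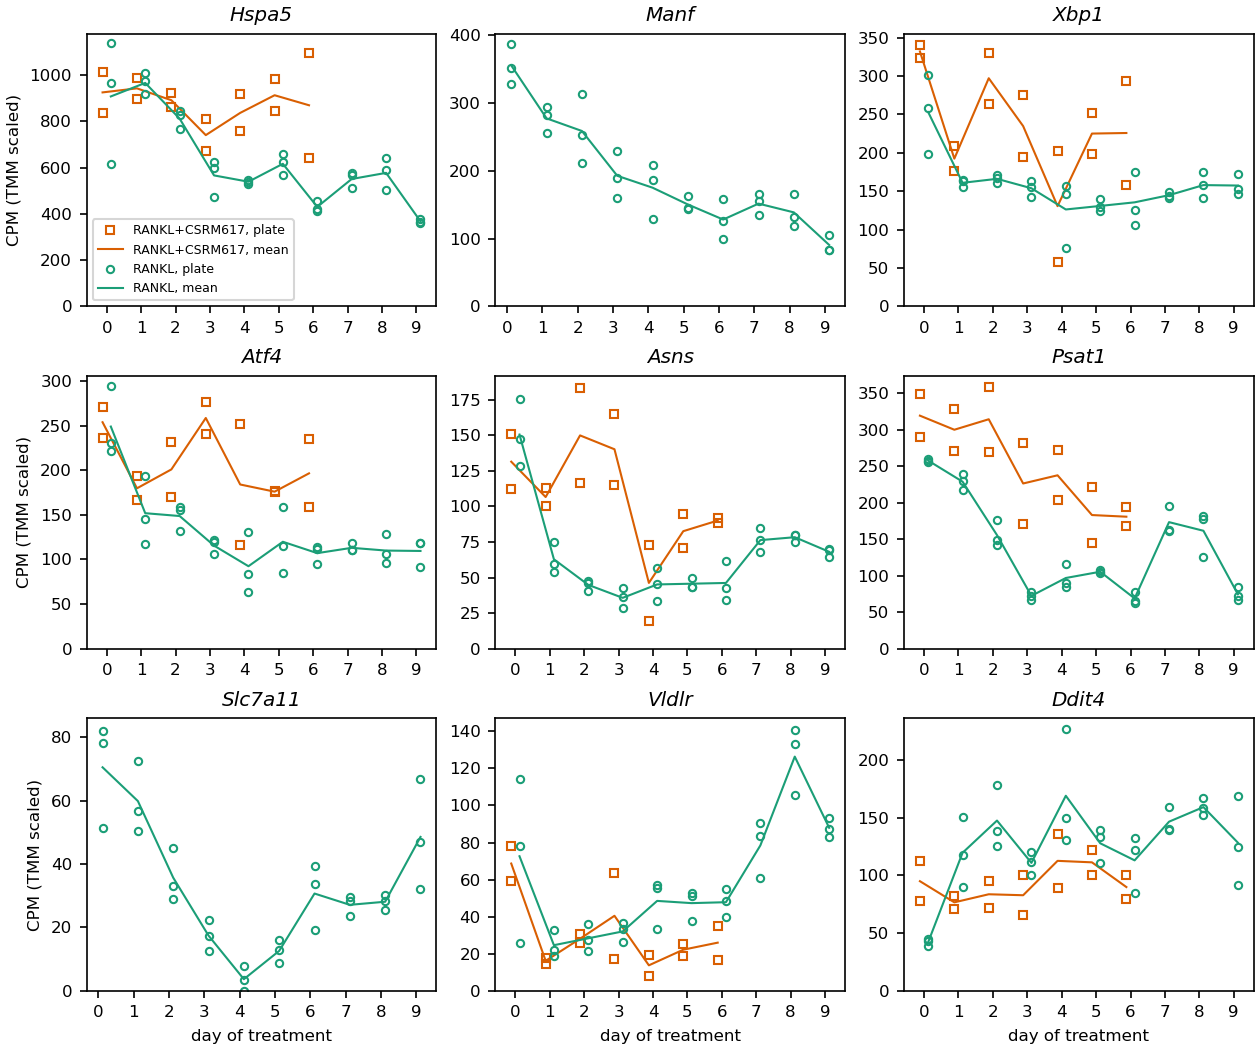
Level (CPM, TMM scaled within each arm, y axis) of 9 members in every plate by day (x axis), squares for RANKL+CSRM617 and circles for RANKL, with lines through the means; Manf and Slc7a11 were not analysed with CSRM617. Hspa5, Manf, Atf4, Asns and Psat1 decline in the RANKL plates, Vldlr declines and returns, and Ddit4 lies at 90.2 CPM or more on day 1, against 38.5 to 44.7 CPM on day 0.

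The ATF4 amino acid genes were the group with the lowest medians on days 1 and 3, at -1.19 and -1.83, against 0.00 and -0.72 for folding genes. On days 6 and 9, 8 of the 9 were lower, with medians of -1.51 (the same with Chac1 at its bound) and -1.33. Asns, asparagine synthetase and the classic ATF4 target (ENSMUSG00000029752, chr6:7675169-7693254, minus strand), had 176, 148 and 128 CPM on day 0, 59.9, 74.9 and 53.8 on day 1, 28.5, 42.6 and 36 on day 3, 61.8, 34.2 and 42.6 on day 6 and 69.6, 64.5 and 70.2 on day 9. All later plates lay below day 0, with the lowest values on day 3. Against day 0 it stood at -1.27 ± 0.18 on day 1 (adjusted p = 1.07e-06), -2.09 ± 0.19 on day 3 (adjusted p = 1.05e-10), -1.70 ± 0.19 on day 6 and -1.15 ± 0.19 on day 9.

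Of the serine and one-carbon genes, Psat1 and Shmt2 were called lower on day 3 but not on day 1, and Mthfd2 and Phgdh on both days. Psat1, of serine synthesis, had 256, 257 and 259.8 CPM on day 0 and 218, 238 and 229.6 on day 1, then 66.5, 72.6 and 77.6 on day 3 and 77.7, 63.1 and 65.3 on day 6. Its plates were far apart between day 1 and day 3 and close within each day (-0.17 ± 0.14 on day 1, not called, and -1.83 ± 0.15 on day 3, adjusted p = 5.11e-12). On day 8 it had 177, 126 and 181 CPM and on day 9 72.6, 66.6 and 84.3. Mthfd2, of the mitochondrial folate cycle, had 115, 64.2 and 102 CPM on day 0, 25.8, 17.4 and 27 on day 3 and 28.1, 23.9 and 23.1 on day 9 (-2.11 ± 0.24 and -2.03 ± 0.25). Its value of -0.59 on day 1 was called, but not without RANKL day 0 replicate 1 (-0.38) or 3 (-0.58) or RANKL day 1 replicate 1 (-0.44) or 2 (-0.50). Shmt2, the mitochondrial serine hydroxymethyltransferase, was -0.24 ± 0.18 on day 1, not called, and -1.13 ± 0.18, -1.01 ± 0.19 and -0.99 ± 0.19 on days 3, 6 and 9. Phgdh, the first enzyme of serine synthesis, ranged from 8.57 to 70.6 CPM among the day 0 plates, and its calls changed with single plates. The call of -1.24 on day 1 was lost without RANKL day 0 replicate 1 (-1.07) or 2 (-0.80) or RANKL day 1 replicate 2 (-1.29) or 3 (-0.99). That of -1.19 on day 3 was lost without RANKL day 0 replicate 1 (-1.01) or 2 (-0.75) or RANKL day 3 replicate 1 (-0.92) or 2 (-1.21) or 3 (-1.31), and that of -1.33 on day 9 without RANKL day 0 replicate 1 (-1.11) or 2 (-0.89) or RANKL day 9 replicate 1 (-1.23) or 2 (-1.28) or 3 (-1.16). The values were -1.86, -1.82 and -1.95 on days 1, 3 and 9 without RANKL day 0 replicate 3.

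The transport and glutathione genes had different time courses. Slc3a2, the heavy chain of several amino acid exchangers, fell at once and stayed low, with 216, 250.2 and 267 CPM on day 0, 123, 94 and 100.4 on day 1 and 90.3, 92.6 and 82.3 on day 9 (-1.19 ± 0.16 on day 1, -1.46 ± 0.17 on day 9). Its partner Slc7a11, the cystine importer, had 78.2, 51.3 and 81.9 CPM on day 0, 72.3, 50.5 and 56.7 on day 1 and 22.4, 17.4 and 12.5 on day 3. On day 4 it had 0, 7.70 and 3.32 CPM, from 0, 5 and 1 UMIs in plates of 32, 120 and 45 cells. It had 66.6, 46.8 and 32.1 CPM on day 9. Of these days it was lowest on day 4, and it was -0.34 ± 0.24 on day 1, not called, -2.12 ± 0.28 on day 3 (adjusted p = 2.46e-07) and -1.32 ± 0.26 on day 6. The call on day 9 (-0.68) was lost without RANKL day 0 replicate 1 (-0.55) or 3 (-0.60) or RANKL day 9 replicate 2 (-0.57) or 3 (-0.34). Chac1, which degrades glutathione, had 18, 2 and 22 UMIs in the day 0 plates, 8, 5 and 5 on day 1, 7, 0 and 1 on day 3, 0 in every plate of days 4, 5 and 6, and 2, 1 and 0 on day 9. It was -2.08 ± 0.60 on day 1, with the call lost without RANKL day 0 replicate 3 (-1.89), and -3.17 ± 0.68 on day 3, or -5.15 without RANKL day 3 replicate 1, which held 7 of the 8 UMIs of that day. Taking 3 UMIs over the group as the limit that a count of 0 allows, Chac1 was at least 7.02-fold lower on day 4, 18.2-fold lower on day 5 and 19.8-fold lower on day 6 than on day 0, for counting error only. On day 9 its ratio to day 0 was 0.0622 (95% exact interval 0.0123 to 0.195). Vldlr, a lipoprotein receptor induced through ATF4, had 114, 25.7 and 78 CPM on day 0, 18.7, 22.2 and 33 on day 1, 48.5, 54.8 and 40.0 on day 6, 133, 140.4 and 105 on day 8 and 93.3, 83.2 and 87.3 on day 9. It was -1.82 ± 0.26 on day 1 and 0.02 ± 0.24, not called, on day 9. Its call on day 6 (-0.86) was lost without RANKL day 0 replicate 1 (-0.39), and the sign turned with cells weighted equally (0.15).

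Among the ATF4 regulators, Atf4 and Ddit4 moved in opposite directions. Atf4 (ENSMUSG00000042406, chr15:80255184-80257541, plus strand) had 222, 231 and 294 CPM on day 0, 193, 145 and 117 on day 1, 119, 106 and 121 on day 3, 95.3, 112 and 114 on day 6 and 118, 91.6 and 118 on day 9. Every later plate lay below every day 0 plate (-0.73 ± 0.19, -1.13 ± 0.19, -1.24 ± 0.19 and -1.21 ± 0.20, adjusted p = 3.07e-06 on day 6), with the day 1 call lost without RANKL day 0 replicate 3 (-0.56) or RANKL day 1 replicate 3 (-0.52). Ddit4 had 43.2, 38.5 and 44.7 CPM on day 0, 151, 90.2 and 118 on day 1, 112, 120.0 and 100.5 on day 3, 122, 84.9 and 132 on day 6 and 169, 125 and 91.3 on day 9. Its plates of all these days were above those of day 0, at 1.47 ± 0.24, 1.35 ± 0.24, 1.38 ± 0.24 and 1.54 ± 0.24 (adjusted p = 1.14e-05 on day 1). Trib3, a pseudokinase induced by ATF4 and CHOP, fell on the 4 days, with 2.65, 2.07 and 0.87 CPM on day 6, against 23, 6.42 and 16.2 on day 0 (-3.21 ± 0.57). It was -1.88 on day 1 (call lost without RANKL day 0 replicate 1 (-1.48)) and -1.28 on day 3 (call lost without RANKL day 0 replicate 1 (-0.86) or 3 (-1.39) or RANKL day 3 replicate 2 (-1.05) or 3 (-1.17)). It was -2.38 on day 9 (-3.12 without RANKL day 9 replicate 3). Ddit3, which encodes CHOP, was not called on any of these days (0.13, -0.52, -0.45 and 0.24), nor was Sesn2. Cebpb was called lower on days 6 and 9 (-0.64 and -0.68). The call on day 6 was lost without RANKL day 0 replicate 1 (-0.46) or 3 (-0.68) or RANKL day 6 replicate 1 (-0.64) or 2 (-0.47) or 3 (-0.63), and that on day 9 without RANKL day 0 replicate 1 (-0.49) or 3 (-0.72) or RANKL day 9 replicate 1 (-0.64) or 2 (-0.71) or 3 (-0.39).

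Between days 3 and 4, a step that does not use day 0, 3 of 40 members were lower on day 4 and 0 higher, against 5.02% and 4.32% of all genes (9.34% called). The 3 called were Herpud1 (-0.94 ± 0.25), P4hb (-0.51 ± 0.17) and Calr (-0.38 ± 0.12). The median log2 change was 0.36 for the ATF4 branch and -0.20 for the chaperone branch and sensors, beside 0.00 for all genes. A difference between the branches at this step was not tested. The call of Herpud1 was lost without RANKL day 4 replicate 2 (-0.86) or 3 (-0.81), and that of P4hb without RANKL day 3 replicate 2 (-0.32) or RANKL day 4 replicate 1 (-0.48) or 3 (-0.45). The call of Calr was lost without RANKL day 3 replicate 1 (-0.38) or 2 (-0.39) or 3 (-0.39) or RANKL day 4 replicate 2 (-0.33) or 3 (-0.37). Only 1 was called without RANKL day 3 replicate 2 or without RANKL day 4 replicate 2, and 0 without RANKL day 4 replicate 3 or without the plates of fewer than 50 cells, which include RANKL day 4 replicates 1 and 3.

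Summed over the genes present in both tables, the 14 folding genes held 5371 ± 373 CPM on RANKL day 0, 3871 ± 181 on day 3, 2746 ± 87.2 on day 6 and 2734 ± 31.8 on day 9 (mean ± SD, n = 3). In between, on days 7 and 8, the sum stood at 3446 ± 154 and 3676 ± 295. The 8 ATF4 amino acid genes held 1065 ± 30.1 CPM on day 0, 658 ± 12.9 on day 1, 367 ± 17.5 on day 3, 619 ± 13.6 on day 8 and 445 ± 2.04 on day 9. In both sums all day 8 plates lay above all plates of days 6 and 9, a difference that was not tested.

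**Figure D3:**
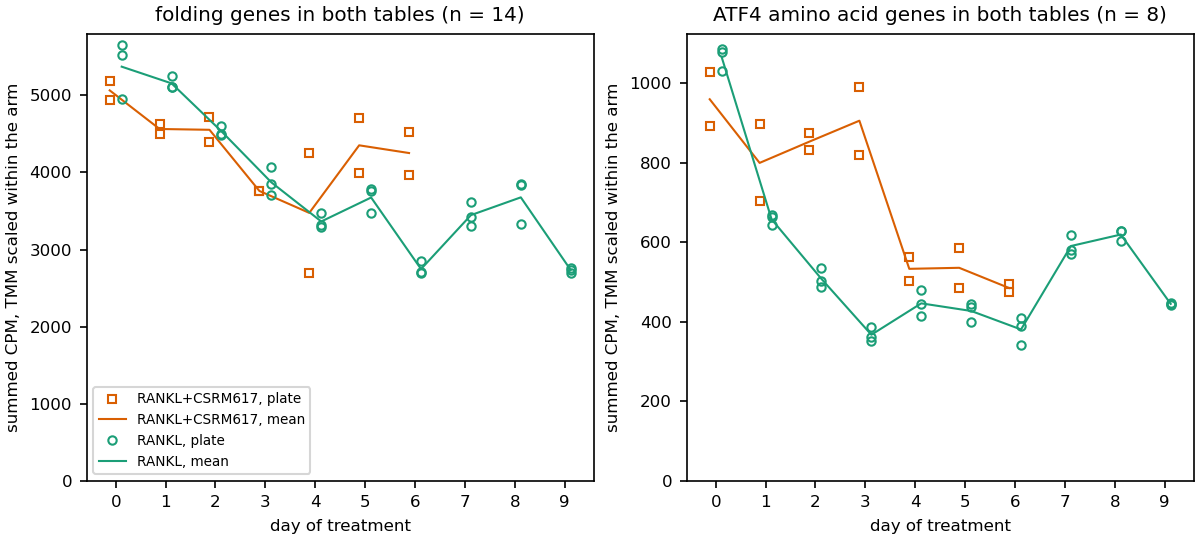
Summed level (CPM, TMM scaled within each arm, y axis) of the 14 folding genes (left) and the 8 ATF4 amino acid genes (right) in both tables, by day (x axis), squares for RANKL+CSRM617 plates and circles for RANKL plates, lines through the means. On day 3 the ATF4 amino acid sum averages 905 with RANKL+CSRM617 and 367 with RANKL, while the folding sums average 3759 and 3871.

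Enterocyte markers moved with these results, so the RANKL comparisons were repeated within classes of cells. Among cells that carried no enterocyte mark, 7 members were called on day 1 (2 higher, 5 lower), 13 on day 3 (1 higher, 12 lower), 25 on day 6 (1 higher, 24 lower) and 22 on day 9 (1 higher, 21 lower), of 37 tested. In the same fits 13.4%, 14.2%, 26.6% and 28.4% of all genes were called on these days, and 6.1%, 6.56%, 13.5% and 14.6% were lower and 7.27%, 7.68%, 13.1% and 13.7% higher. Of the 25 chaperone branch and sensor genes tested, 2 were called on day 1, 4 on day 3, 16 on day 6 and 14 on day 9, against 8, 12, 22 and 20 of 25 in whole plates. On days 1 and 3 these shares were below or near the 13.4% and 14.2% of all genes called. All 4 of day 3 were lower, against 6.56% of all genes. Of the 12 ATF4 branch genes tested, 5, 9, 9 and 8 were called, against 9, 12, 12 and 12 of 15 in whole plates. Syvn1 on day 3 turned sign in these cells (0.02). Among enterocyte-marked cells alone, 10 of 32 were called on day 1 (2 higher, 8 lower) and 17 on day 3 (1 higher, 16 lower), against 17.4% and 21.8% of all genes (7.69% and 10.2% lower). Among cells without goblet marks, 18 of 39 members were called on day 1, 21 on day 3, 32 on day 6 and 31 on day 9, against 25%, 20.4%, 38.8% and 36.2% of all genes. These classes hold fewer cells and UMIs than whole plates, and the part of cell makeup in the difference between whole plates and these classes was not tested.

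Neighbouring genes of the same pathways, taken from lists outside the 42, were set against the 12.3%, 10.2%, 19.4% and 18.4% of all genes that were lower on days 1, 3, 6 and 9. Of 25 genes for entry into and export from the ER, such as Sec61 subunits and COPII coats, 1 was higher and 18 lower on day 6 (median -0.67) and 1 higher and 19 lower on day 9 (-0.82). Sec24d, a COPII cargo adaptor, was at -3.99 on day 6 and Sec62, a translocon partner and the one gene of the list that was higher on both days, at 0.59 on day 9. Of 18 further ATF4 targets tested, 1 was higher and 8 lower on day 1, 12 lower on day 3, 11 lower on day 6, and 1 higher and 9 lower on day 9. Cth, cystathionine gamma-lyase, was -3.38 on day 6 and the transcription factor Atf3 -3.54 on day 3, whereas Gdf15, a stress-induced secreted factor, was 2.91 on day 9. Of 19 aminoacyl-tRNA synthetases tested, 10 were lower on day 3, 11 lower and 1 higher on day 6 and 11 lower on day 9. On day 9 Aars, for alanine, stood at -1.70 and Rars, for arginine, at -1.52. On day 6 the other ER folding genes (1 higher and 5 lower of 17), the other ERAD genes (4 lower of 15) and the eIF2 kinases, subunits and exchange factors (3 lower of 12) had no larger a share called in either direction than the 38.3% of all genes. In each of these lists the share that was lower was above the 19.4% of all genes. Among these genes the ER oxidase Ero1l stood at -2.91 and the ERAD gene Selenos at -1.35 on day 6, Eif2ak2, the kinase PKR, at -1.28 on day 9, and Dnajc10, an ER disulfide reductase, at 1.32 on day 3. On day 9, 6 of 17 folding genes, 4 of 15 ERAD genes and 5 of 12 eIF2 genes were lower, and of 10 cytosolic heat shock genes 1 was higher and 5 lower. Of all genes 18.4% were lower and 18% higher on that day (36.4% in either direction).

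With CSRM617 added, few members were called against day 0 of that arm. This arm had 2 plates per day, fewer UMIs and 31 members tested. Even so, the middle log2 fold change of the members lay below that of all genes at each comparison. The pairs of medians, members first, were -0.17 and 0.03 (day 1), -0.32 and -0.05 (day 3), and -0.36 and -0.04 (day 6). Whether members and all genes differed in this way beyond plate spread was not tested. On day 1, 1 member was lower and 0 higher, against 2.29% and 2.08% of 6499 genes (4.37%). On day 3, 2 were lower and 0 higher, against 7.96% and 10.0% of all genes (18%), and on day 6, 1 was lower and 0 higher, against 2.95% and 4.55% (7.51%). The test of any difference among its 7 days called 5 of 31, against 20.2% of all genes, with 3 called without RANKL+CSRM617 day 0 replicate 1 or day 0 replicate 2, 2 without day 3 replicate 2, and 8 without day 2 replicate 1 or day 4 replicate 1. Under equal weights for cells, 100.0%, 76.5% and 45% of all calls on days 1, 3 and 6 were higher, from 47.5%, 55.7% and 60.7% in the plate sums, and 0, 0 and 1 members were called.

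The members called in the RANKL+CSRM617 arm were these. Vldlr had 17.7 and 14.6 CPM on day 1, against 59.2 and 78.2 on day 0 (-2.02 ± 0.46, adjusted p = 0.00929), and lost the call without RANKL+CSRM617 day 0 replicate 2 (-1.85) or RANKL+CSRM617 day 1 replicate 1 (-2.19) or 2 (-1.91). Pdia6 had 213 and 146 CPM on day 3, against 478 and 466 on day 0 (-1.40 ± 0.26, adjusted p = 0.000551). Canx had 688 and 607 CPM on day 3, against 1031 and 1092 on day 0 (-0.71 ± 0.22), a call that was lost without RANKL+CSRM617 day 0 replicate 1 (-0.76) or 2 (-0.63) or RANKL+CSRM617 day 3 replicate 1 (-0.76) or 2 (-0.62). Shmt2 had 33.5 and 17.6 CPM on day 6, against 143 and 162 on day 0 (-2.54 ± 0.57), and lost the call without RANKL+CSRM617 day 6 replicate 2 (-2.18). In each of these the plates of both days did not overlap. Hspa5 stood at 0.03 ± 0.24, -0.32 ± 0.24 and -0.09 ± 0.25 on days 1, 3 and 6, Asns 0.06 ± 0.29 on day 3, and Xbp1 -0.51 ± 0.28 on day 3, none of them called.

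The arms already differed on day 0, with 3 of 37 members higher and 3 lower in RANKL+CSRM617 than in RANKL plates, against 2.75% and 7.07% of 8766 genes (9.82%). Dnajb11 had 11.4 and 13.7 CPM in RANKL+CSRM617 plates, against 96.9, 118 and 73.1 in RANKL plates (-2.84 ± 0.38), on the scale common to both arms. Sel1l was -1.55 ± 0.23 and Canx 0.65 ± 0.15. Dnajb9 (-1.08), Sdf2l1 (1.12) and Ddit4 (1.22) were called too. Dnajb9 lost the call without RANKL day 0 replicate 1 (-0.91) or RANKL+CSRM617 day 0 replicate 1 (-1.06), Sdf2l1 without RANKL day 0 replicate 1 (1.20) or 3 (0.95) or RANKL+CSRM617 day 0 replicate 1 (0.68) and Ddit4 without RANKL+CSRM617 day 0 replicate 2 (0.95). Outside the members, offsets on day 0 reached -5.64 for Ssr1 and -5.22 for Hspa8, and 2.82 for Gdf15. How far the counts of a gene can be compared between the arms was not tested. Under equal weights, 12.1% of all day 0 calls were higher in the RANKL+CSRM617 arm, from 28%. Because of this offset the arms were compared by their changes from their own day 0.

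By that measure the members called on day 3 came mostly from the ATF4 branch. With RANKL alone all 9 amino acid genes were lower on day 3 than on day 0, and with CSRM617 added 0 of the 6 tested in that arm were called. Of 37 members tested, the change to day 3 was higher with RANKL+CSRM617 for 8 and lower for 1, against 3.82% and 1.64% of all genes (5.46%), and 5 of the 8 amino acid genes were among those higher (median 1.62, beside -0.01 for all genes). Of the 14 folding genes 1 was higher, with a median of 0.12. Asns had 181 and 127 CPM on day 3 of RANKL+CSRM617, against 28, 41.4 and 35.4 on day 3 of RANKL. On day 0 it had 159 and 118 CPM in RANKL+CSRM617 plates, against 169.8, 151 and 122 in RANKL plates, so the arms overlapped on day 0 and lay far apart on day 3. The difference of the changes was 2.19 ± 0.35 (log2, adjusted p = 0.000117). Mthfd2 had 151 and 144 CPM with RANKL+CSRM617 on day 3, against 25.3, 16.9 and 26.5 with RANKL, and on day 0 132 and 121 CPM with RANKL+CSRM617, against 111, 65.6 and 96.6 with RANKL (2.30 ± 0.39, adjusted p = 0.000269). Slc3a2 had 252 and 258 CPM with RANKL+CSRM617, against 99.2, 101 and 120.4 with RANKL on day 3 (1.87 ± 0.30, adjusted p = 9.3e-05).

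The other day 3 calls changed with single plates. Psat1 had 309 and 188 CPM on day 3 with RANKL+CSRM617, against 65.2, 70.6 and 76.2 with RANKL (1.37 ± 0.27), a call lost without RANKL+CSRM617 day 3 replicate 1 (0.94). Chac1 had 13 and 9 UMIs in the RANKL+CSRM617 plates of day 3, against 7, 0 and 1 in the RANKL plates (4.43 ± 0.87, and 6.39 without RANKL day 3 replicate 1). Atf4 had 263 and 305 CPM with RANKL+CSRM617, against 117, 103 and 119 with RANKL (1.21 ± 0.33), and lost the call without RANKL day 0 replicate 3 (1.03) or RANKL+CSRM617 day 0 replicate 1 (1.08) or 2 (1.27) or RANKL+CSRM617 day 3 replicate 2 (1.08). Dnajb9 (1.69 ± 0.39) and Herpud1 (1.59 ± 0.38) were the members of the chaperone branch called, Dnajb9 losing it without RANKL+CSRM617 day 3 replicate 2 (1.50) and Herpud1 without RANKL+CSRM617 day 0 replicate 2 (1.37) or RANKL+CSRM617 day 3 replicate 2 (1.40). Ddit4, higher on day 0 in the RANKL+CSRM617 plates, had 71.5 and 111 CPM on day 3 with RANKL+CSRM617, against 109.8, 117 and 98.6 with RANKL, which overlap. On day 0 it had 81.7 and 118 CPM with RANKL+CSRM617, against 41.8, 39.3 and 42.4 with RANKL, and its change was lower with RANKL+CSRM617 (-1.45 ± 0.40), a call lost without RANKL+CSRM617 day 0 replicate 2 (-1.23) or RANKL+CSRM617 day 3 replicate 1 (-1.21). With each cell weighted equally Asns, Psat1 and Slc3a2 were called higher and Ddit4 lower, against 0.958% of all genes in either direction, and 51.2% of all calls were higher, from 69.9%.

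Of the 8 members whose change differed on day 6, 6 belonged to the chaperone branch and 2 to the ATF4 branch, and a difference between the branches was not tested. The change was higher with RANKL+CSRM617 for 7 of 37 members and lower for 1, against 7.1% and 4.24% of all genes (11.3%). Among these were 4 of the 14 folding genes, whose median was 0.64 beside -0.06 for all genes, and 2 of 5 ERAD genes. Dnajc3 had 237 and 270.3 CPM on day 6 with RANKL+CSRM617, against 75.3, 83.4 and 71.3 with RANKL, and on day 0 204 and 209 CPM with RANKL+CSRM617, against 178, 249 and 182 with RANKL (1.62 ± 0.30, adjusted p = 0.00017). It was the only called member whose call was kept whichever plate was left out. Hspa5 had 1148 and 658 CPM with RANKL+CSRM617, against 397, 403 and 441 with RANKL (1.02 ± 0.27), and lost the call without RANKL day 0 replicate 3 (0.74) or RANKL+CSRM617 day 0 replicate 1 (0.79) or RANKL+CSRM617 day 6 replicate 1 (0.47). Calr (0.84 ± 0.26), P4hb (1.18 ± 0.36), Edem1 (1.63 ± 0.41), Derl1 (1.28 ± 0.40) and, of the ATF4 branch, Psat1 (1.06 ± 0.32) were called higher and Ddit4 (-1.44 ± 0.46) lower. The count of 8 was 4 without RANKL day 0 replicate 1 or 3, 5 without RANKL+CSRM617 day 0 replicate 1, 2 without RANKL+CSRM617 day 0 replicate 2 or day 6 replicate 1 and 3 without day 6 replicate 2. Calr lost its call without RANKL day 0 replicate 1 (0.79) or 3 (0.67) or RANKL day 6 replicate 2 (0.78) or RANKL+CSRM617 day 0 replicate 1 (0.81) or 2 (0.67) or RANKL+CSRM617 day 6 replicate 1 (0.74) or 2 (0.74), and P4hb without RANKL day 0 replicate 1 (1.09) or RANKL+CSRM617 day 0 replicate 1 (1.13) or 2 (1.02) or RANKL+CSRM617 day 6 replicate 1 (0.75). Edem1 lost it without RANKL+CSRM617 day 0 replicate 2 (1.26) or RANKL+CSRM617 day 6 replicate 2 (0.85), and Psat1 without RANKL day 0 replicate 3 (0.97) or RANKL+CSRM617 day 0 replicate 2 (0.85) or RANKL+CSRM617 day 6 replicate 1 (1.06) or 2 (0.88). Derl1 lost it without RANKL day 0 replicate 1 (1.24) or 3 (1.13) or RANKL day 6 replicate 3 (1.13) or RANKL+CSRM617 day 0 replicate 1 (1.26) or 2 (1.15) or RANKL+CSRM617 day 6 replicate 1 (1.15) or 2 (1.24), and Ddit4 without RANKL day 0 replicate 1 (-1.44) or RANKL day 6 replicate 1 (-1.39) or 3 (-1.31) or RANKL+CSRM617 day 0 replicate 2 (-1.28) or RANKL+CSRM617 day 6 replicate 1 (-1.72) or 2 (-1.35). Under equal weights the all-gene median was -0.46, 27.7% of all calls were higher, from 62.6%, and 3 members were called higher and 3 lower, against 4.46% and 11.7% of all genes, Hspa5, Calr, P4hb and Derl1 not among them.

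**Figure D4:**
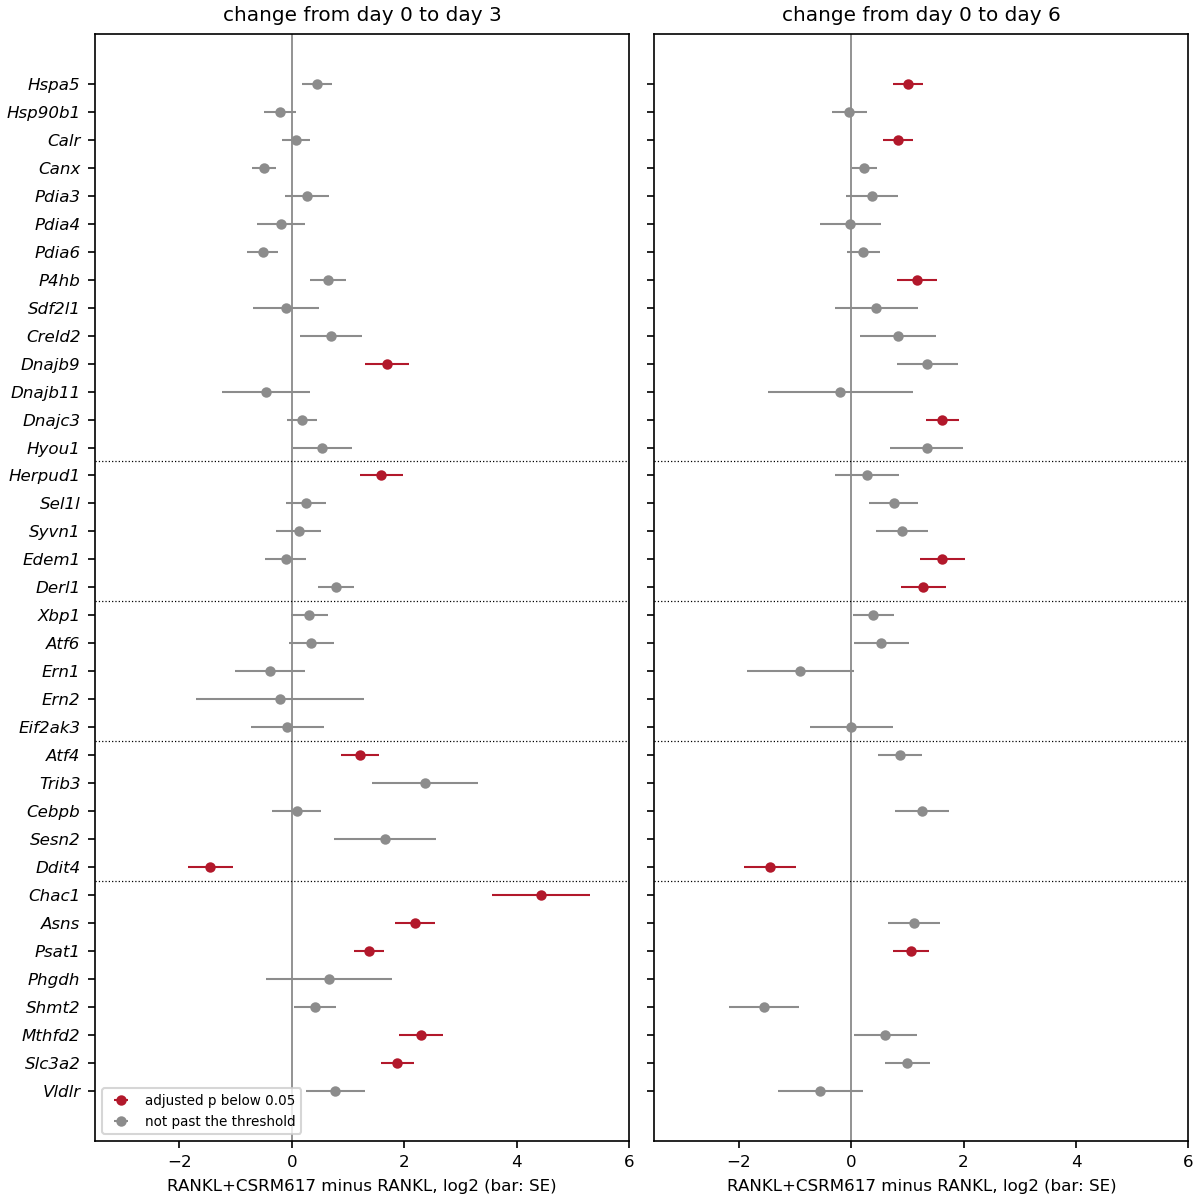
Difference between the arms in the change from day 0 to day 3 (left) and to day 6 (right), RANKL+CSRM617 minus RANKL, in log2 units (x axis) for each member (y axis), bars for SE and red for adjusted p below 0.05. On day 3 Chac1, Asns, Psat1, Mthfd2 and Slc3a2 are called higher, on day 6 Hspa5, Calr, P4hb, Dnajc3, Edem1 and Derl1; genes with an SE of 1.5 or more in a comparison are not drawn there.

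Cell makeup differed between the arms as well. Summed enterocyte markers stood at 3745 per 1000000 UMIs on day 0, 16689 on day 3 and 5149 on day 6 of RANKL+CSRM617, and at 9534, 11601 and 1449 on the same days of RANKL. The change of 8 of 12 enterocyte markers on day 3 and 7 of 12 on day 6 was higher with RANKL+CSRM617 (medians 2.49 and 3.99). On day 3, M cell markers summed to 6829 per 1000000 UMIs with RANKL+CSRM617, against 2801 with RANKL, goblet markers to 2267 with RANKL+CSRM617, against 532 with RANKL, Paneth markers to 1559 with RANKL+CSRM617, against 320.1 with RANKL, and stem cell markers to 1830.1 with RANKL+CSRM617, against 3819 with RANKL. Paneth markers summed to 3873 per 1000000 UMIs on day 6 of RANKL+CSRM617, against 552 with RANKL, stem cell markers to 1607 with RANKL+CSRM617, against 10546 with RANKL, and cycling markers to 507 with RANKL+CSRM617, against 2337 with RANKL. Their part in the differences between arms was not tested.

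Goblet-marked cells had 5 or more UMIs over 6 goblet genes from at least 2 of them. Chaperone branch RNA made up a larger share of their UMIs than in the other cells of their own plate. In 27 RANKL plates there were 459 marked and 5996 other cells, 3.1% to 11.3% of a plate, with median depths per plate of 2208.5 to 7175 UMIs in marked and 3005 to 6557 in other cells. In most of these plates marked cells had the lower median, as on day 6 replicate 1 (2208.5 against 3930), but not on day 4 replicate 2 (7175 against 5876). RNA per cell was therefore not compared. Of 32 members tested with plate as a block, 20 were higher and 2 lower in marked cells, against 10.3% and 11.3% of 6047 genes (21.6%), with gate genes left out. The higher ones included 12 of the 13 folding genes tested (median 0.66, beside -0.03 for all genes) and 3 of 5 ERAD genes. Paneth markers moved with this gate, 4 of 4 tested being higher (median 5.79), so this gate did not separate goblet from Paneth cells. Of 9 enterocyte markers tested 7 were lower in marked cells, as were 7 of 7 cycling markers, and their part in the result was not tested. Ern2 averaged 81.4 ± 53 CPM in marked cells and 2.42 ± 1.48 CPM in other cells (SD, n = 27 plates), and was higher in marked cells in 26 of the 27 plates (4.85 ± 0.28, adjusted p = 6.14e-21). No other member differed as much between these cells.

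Of the rest, Hspa5 averaged 1061 ± 470.3 CPM in goblet-marked and 645 ± 208 CPM in other cells (0.68 ± 0.08, higher in 25 of 27 plates). Pdia6 averaged 642 ± 254 CPM in marked and 336 ± 71.3 CPM in other cells (0.90 ± 0.08, 27 of 27), and Xbp1 269 ± 71.6 CPM in marked and 160.4 ± 41.6 CPM in other cells (0.79 ± 0.10, 25 of 27). Manf (0.87 ± 0.09), Sel1l (0.95 ± 0.11) and Herpud1 (1.16 ± 0.17) were higher as well. The ATF4 amino acid genes had a median of -0.04, with Vldlr higher (1.34 ± 0.15), Psat1 lower (-0.54 ± 0.15) and Asns not called (-0.04 ± 0.16), while Atf4 was 0.35 ± 0.11, Ddit4 0.40 ± 0.12 and Cebpb -0.75 ± 0.23. Of the pathway lists, 15 of 23 ER translocation genes and 5 of 11 other ER folding genes were higher, led by the disulfide isomerase Txndc5 (2.45). With each cell weighted equally 11.3% of all calls were higher, from 47.8%, and the all-gene median was -0.44. Under that weighting 15 members were higher and 3 lower, against 4.86% and 38.3% of all genes.

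**Figure D5:**
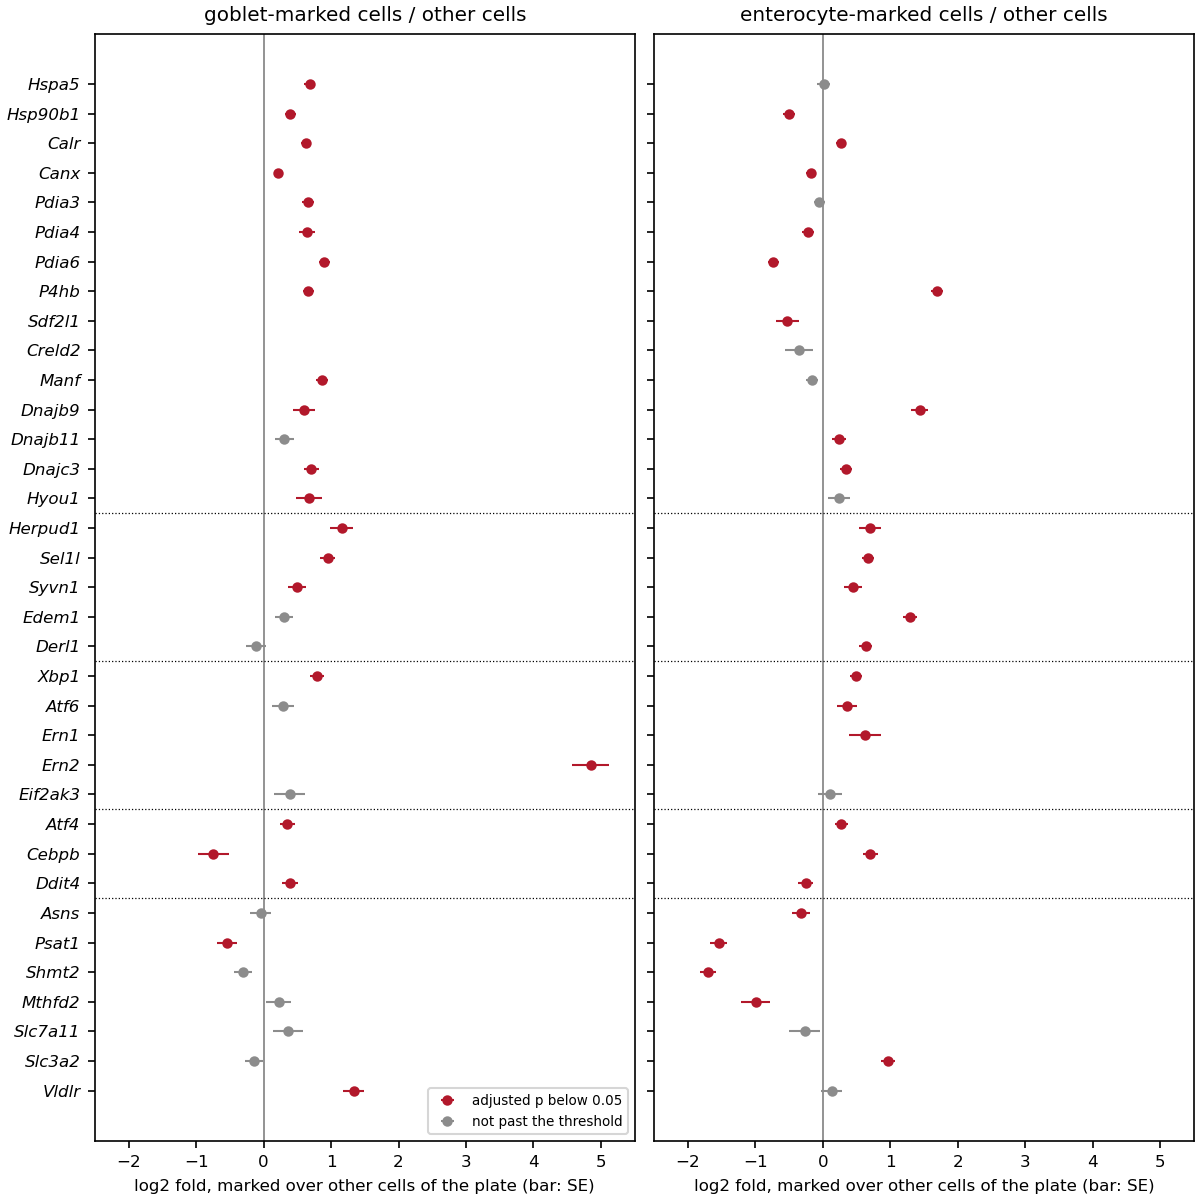
Log2 fold of goblet-marked over other cells (left) and of enterocyte-marked over other cells (right) of the same plates (x axis) for each member (y axis), bars for SE and red for adjusted p below 0.05. Ern2, at 4.85, is the farthest to the right in goblet-marked cells, and in enterocyte-marked cells P4hb is high and Shmt2, Psat1 and Mthfd2 are low.

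Enterocyte-marked cells split the members instead. In the 12 RANKL plates of days 0 to 3, 782 marked cells were set against 1944 others, with median depths of 5154 to 7187 UMIs in marked and 4270 to 6628 in other cells. Of 34 members tested, 16 were higher and 10 lower in marked cells, in a comparison where 69.9% of 6746 genes were called (34.2% higher, 35.8% lower), so the share called is near the background and only the sizes are described. Folding genes went both ways, 5 higher and 5 lower of 15. P4hb averaged 1242 ± 404 CPM in marked and 369.6 ± 87.7 CPM in other cells (SD, n = 12 plates) and was higher in 12 of 12 (1.69 ± 0.09). Pdia6 averaged 274 ± 106 CPM in marked and 429 ± 82.4 CPM in other cells, and was higher in 0 of 12 (-0.73 ± 0.09). The ERAD genes Edem1 (1.29 ± 0.10), Herpud1, Sel1l, Syvn1 and Derl1 were all higher, as was Dnajb9 (1.43 ± 0.12), whereas Hspa5 was not called (0.01 ± 0.10). Calr and Dnajb11 were higher in the plate sums but not under equal weights, which turned the sign (-0.059 and -0.078).

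In the ATF4 branch the synthesis genes were low in enterocyte-marked cells and the transporter subunit was high. Psat1 averaged 75.3 ± 53.9 CPM in marked and 213 ± 89.8 CPM in other cells (-1.54 ± 0.13, higher in 0 of 12 plates). Shmt2 averaged 50.6 ± 24.3 CPM in marked and 171 ± 73.4 CPM in other cells (-1.70 ± 0.12), Mthfd2 was -1.0 ± 0.21 and Asns -0.32 ± 0.14. Slc3a2 averaged 209 ± 77.8 CPM in marked and 109 ± 44.3 CPM in other cells (0.97 ± 0.10, higher in 12 of 12), and Cebpb (0.71 ± 0.11) and Atf4 (0.27 ± 0.09) were higher. Stem and cycling markers moved with this contrast, 8 of 8 and 7 of 7 being lower in marked cells (medians -2.17 and -2.39), and their part was not tested. Equal weighting of cells made 30.1% of all calls higher, from 48.9%, with an all-gene median of -0.35.

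Between M cell-marked cells and the others 4 members were called, a larger share than among all genes. In the 12 RANKL plates of days 1 to 4 a mark was 3 or more UMIs over 6 M cell genes, which 1674 cells carried and 768 did not, and 302 cells lay at the threshold or 1 UMI below it. Median depths were 4921 to 7292 UMIs in marked and 3458.5 to 6347 in other cells. Of 31 members, 1 was higher and 3 lower in marked cells, against 2.38% and 3.73% of 6002 genes (6.11%). Calr was 0.17 ± 0.05, P4hb -0.38 ± 0.07, Slc3a2 -0.49 ± 0.11 and Vldlr -0.68 ± 0.20. Hspa5 (0.00 ± 0.06), Xbp1 (-0.16 ± 0.09), Atf4 (-0.15 ± 0.10) and Asns (0.03 ± 0.16) were not called. With each cell weighted equally 0 members were called, of 100 genes called in all, 62% of them higher, from 39%.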

How the data were processed

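Per the labels' protocols, cells were sorted into 384-well plates and libraries made by a modified CEL-Seq2 protocol with UMIs. The deposited tables hold counts of UMIs per gene and well, unnormalized, in one table per arm. The submitters' processing notes name kallisto, bustools, Seurat 3.1.5 and GRCm38. Any filter that the authors applied before the counts were deposited is not given in the labels or notes. Of the wells in the tables none had fewer than 657 UMIs with RANKL and 344 with RANKL+CSRM617. Every column of wells was matched to a plate by the plate name in the labels, and 0 columns belonged to no sample. Plates were read as replicates; 37 pairs of plates of the same day and arm differed by more than sampling noise, so each was counted as 1 sample.

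Wells with 1000 or more UMIs were summed per plate (R 4.3.3, edgeR 4.0.16, limma 3.58.1, DESeq2 1.42.0, numpy 2.4.6, pandas 2.3.3). Genes were filtered with filterByExpr, scaled by TMM and tested with edgeR's quasi-likelihood test, with Benjamini-Hochberg adjustment over all genes tested and a threshold of 0.05. All days of an arm entered the fit of that arm. Only plates of the days sampled in both arms entered the fits that compared arms, so the later RANKL plates were left out. These fits used the 9257 genes or fewer found in both tables. Marked cells were summed apart from the other cells of a plate, with plate as a block, the marker genes left out of the test and 5 or more cells of each kind per plate. No doublet caller was run, and 9 RANKL and 10 RANKL+CSRM617 cells exceeded 3 times the median UMIs of their plate. A count of 0 was given a floor of 3 UMIs over the group, and intervals are exact at 95%, both for counting error only. Depth and the number of plates differed between arms, and their part in the number of calls was not tested. The edgeR step was also run on simulated counts with the same spread between plates set for every gene. That run checks the code and does not test the calls made on these plates.

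The members and all gene lists were chosen with earlier results of these data known. Any member could be named, and in each comparison the named ones included up to 4 of the largest called rises and falls of each branch with 10 or more UMIs per plate, and Hspa5, Xbp1, Ern2, Atf4, Ddit3, Trib3 and Asns in any case. Of each pathway list up to 2 called genes per direction were named. Alternatives were another scaling (RLE), DESeq2, no filter on low counts, other UMI minimums, equal weight per cell (mean CPM per plate, limma), fits without plates of fewer than 50 cells, without the most abundant gene, of the compared plates only, with the replicate number as a block, and without each plate in turn. Fits within classes of cells were added after the data were seen. Replicate numbers did not pair plates.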

Additional observations from a re-analysis of the deposited data

Results flagged for a closer look

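The change from day 0 differed between the arms for 17 results, each by the test of that difference in one edgeR fit over both arms; values are RANKL+CSRM617 minus RANKL on the log2 scale. On day 3 it was 1.69 for Dnajb9, 1.59 for Herpud1, 1.21 for Atf4, 4.43 for Chac1, 2.19 for Asns, 1.37 for Psat1, 2.30 for Mthfd2, 1.87 for Slc3a2 and -1.45 for Ddit4. On day 6 it was 1.02 for Hspa5, 0.84 for Calr, 1.18 for P4hb, 1.62 for Dnajc3, 1.63 for Edem1, 1.28 for Derl1, 1.06 for Psat1 and -1.44 for Ddit4. Psat1 and Ddit4 appear on both days, and both days share the day 0 plates of each arm. Groups of 2 and 3 plates were too small to look for single outlying plates.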

How the results depend on the processing

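Member values were recomputed 7278 times under the alternatives. The direction and side of the threshold were kept in 6898, the call was lost in 321 and gained in 56, and the sign turned in 3: Vldlr on RANKL day 6 (0.15), and Calr (-0.059) and Dnajb11 (-0.078) in enterocyte-marked cells, all with cells weighted equally. Among cells without enterocyte markers Syvn1 on RANKL day 3 turned as well (0.020). Counts below changed by over 1.5 times, and apart from fits with fewer plates or cells the cause was not tested.
On RANKL day 1, 1287 genes and 7 members were called in cells without enterocyte markers and 1030 genes and 10 members in enterocyte-marked cells, against 2375 and 17, and 7 members with cells weighted equally. On RANKL day 3, 1290 genes were called in enterocyte-marked cells, against 2043, and 13 members, against 24, in cells without enterocyte markers. Between RANKL days 3 and 4, 224 genes and 0 members were called without plates of fewer than 50 cells, 431 and 0 with only the plates compared, and 395 and 1 in cells without enterocyte markers, against 934 and 3.
In the RANKL+CSRM617 arm DESeq2 called 182 genes and 0 members on day 1, against 284 and 1, and a fit of the compared plates 3 members; that fit called 2 members on day 6, and wells with 2000 or more UMIs gave 4, against 1. Without the filter on low counts 1 member was called on day 3, against 2, and 9 over all days, against 5. With cells weighted equally 41 genes and 0 members were called on day 1, 221 and 0 on day 3, against 1167 and 2, 271 genes on day 6, against 488, and 380 genes and 1 member over all days, against 1310 and 5. Between the arms that weighting called 412 genes on day 0, against 861, and 84 genes and 4 members on day 3, against 479 and 9. In goblet-marked cells 2146 genes were called without the filter and 2613 with cells weighted equally, against 1306; in M cell-marked cells 572, 100 (0 members) and, with double the marker UMIs, 733 genes, against 367 genes and 4 members.
Without 1 plate, genes and members called ranged over 1769 to 2301 and 10 to 16 on RANKL day 1, 485 to 963 and 0 to 3 between days 3 and 4, 112 to 185 and 0 to 1 on RANKL+CSRM617 day 1, 527 to 825 and 1 to 2 on day 3, 214 to 377 and 0 to 1 on day 6, and 1000 to 1396 and 2 to 8 over all its days. Between the arms they were 445 to 818 and 5 to 6 on day 0, 163 to 510 and 6 to 9 on day 3, and 459 to 1047 and 2 to 9 on day 6. Where this left a day with 1 plate, that plate was taken to vary like those of the other days.
Replicate numbers did not pair plates: same-numbered plates had median correlations of their deviations of -0.01 to 0.01. With the replicate number as a block, 17, 25, 33 and 32 members were called on RANKL days 1, 3, 6 and 9 (2332, 2001, 3777 and 3551 genes), 4 between days 3 and 4 (897 genes) and 35 over all days (5747 genes). With RANKL+CSRM617 the block gave 1, 2 and 1 members on days 1, 3 and 6 (243, 1076 and 453 genes) and 5 over all days (1147 genes).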
